A study of Danio rerio with 12 samples.

Results

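The Hox genes of the zebrafish were examined across 12 mRNA libraries of whole larvae exposed to the insecticide broflanilide or to solvent. Members were taken by gene symbol alone, as every row named hox with a cluster letter from a to d, a paralog number and, where present, a letter for the duplicated copy. The rule found 48 genes, all of them present among the 25811 genes of the low-dose table and the 25448 genes of the high-dose table. The controls received DMSO, the solvent (n = 5). The low dose was broflanilide at 1 µg/L (n = 4) and the high dose was broflanilide at 10 µg/L (n = 3), both in larvae of the same labelled stage. The sources used here give no strain, larval age, exposure time or number of larvae per library. Separate clutches or pools are not stated either, so every p-value measures the spread between these samples only, which may be technical.

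Hox genes encode homeodomain transcription factors that give cells an address along the head-to-tail axis. They lie in clusters, and their order on the chromosome matches the order of their expression domains along the body: low paralog numbers act in the hindbrain and pharyngeal arches, middle numbers in the neck and trunk, and high numbers in the posterior trunk, tail and distal fins. Teleost fish duplicated their genome and then lost many copies, so that zebrafish clusters carry a or b after the letter, and several paralog groups keep both copies. In larvae the early domains are established and Hox transcripts persist in hindbrain and spinal neurons, trunk mesoderm and fins.

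Total counts per library ran from 10721025 to 16378571. Markers of hindbrain and spinal cord neurons, a main site of larval Hox expression, were present in every library, with a summed level of 519 to 683 CPM (a gene's counts relative to those of its library) over the 19 of 23 listed genes found. In earlier results of these data, control replicates 2 and 3 and low dose replicate 4 stood apart. In the present values, the summed level of 10 somitic muscle genes was 7432 CPM in control replicate 2, against 15957 to 28878 CPM in the other controls. Low dose replicate 4 had the lowest level of 18 proliferation genes, at 205 CPM against 360 to 493 CPM in the other low-dose libraries. The counts of each comparison, and the fold changes of named genes that these libraries move most, are given with and without them.

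The 48 genes fell into 7 clusters and 13 paralog groups. On the build GRCz11, with positions as deposited, the hoxaa cluster (6 genes) spans chr19:19729506-19787752 and the hoxab cluster (5 genes) spans chr16:20895904-20929183. The hoxba cluster (11 genes) spans chr3:23654233-23771945, and the hoxbb cluster, reduced to 4 genes, spans chr12:27117609-27142834. The hoxca cluster (11 genes) is the longest, at chr23:35969228-36190988, and the hoxcb cluster (4 genes) spans chr11:2156430-2204754. The hoxda cluster (7 genes, chr9:1937049-1990323) is the only Hox-d cluster and the only one of the 7 on the minus strand. Within each cluster all genes lie on 1 strand, and ordered by their 3′ ends the paralog numbers run in sequence with 1 exception, hoxb3a, whose gene model ends beyond hoxb1a. By the usual convention the genes were divided into 10 anterior members (groups 1 to 3), 15 central members (groups 4 to 8) and 23 posterior members (groups 9 to 13).

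Gene models overlap in these compact clusters, which bears on what a count means. The spans of 20 members overlap another Hox gene, and 5 models hold other Hox genes inside them: hoxb3a and hoxc3a hold 5 each, hoxc10a holds 3, and hoxa3a and hoxd3a hold 1 each. The spans of 25 members overlap a gene on the opposite strand. All 5 hoxab genes lie within the span of tax1bp1b, which had a mean count of 1939 per library. The sources used here do not say whether reads were counted by strand, or how reads falling on several genes were assigned. Exon positions were not used here, so the length of overlapping exons is not known.

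Hox transcripts were a small part of the larval mRNA. Between 5572 and 8341 reads per library fell on the 48 genes, which was 0.0462% to 0.0655% of all counts. In whole larvae, fewer cells of a type and less RNA per cell cannot be told apart for this or any later value. Of the members, 44 had a mean of at least 10 counts over the 12 libraries. The other members were hoxb1b, hoxb6b, hoxa11a and hoxb8b, with means of 5.92, 7.92, 8.33 and 8.58 counts. Only 5 members had a library at 0, in 8 gene and library combinations, and control replicate 2 held 4 of these. A count of 0 there allows up to 3 counts, or 0.213 CPM, and this limit covers counting error only.

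Levels between genes were compared as CPM per kilobase of the deposited gene length, on 1 TMM scale (a scaling of library totals that trims extreme genes) over the 12 libraries. In controls the highest per-kilobase levels belonged to central and group 3 genes. hoxb8a, a trunk gene of the hoxba cluster, led at 16.8 ± 1.52 CPM per kilobase (SD, n = 5). It was followed by hoxd3a at 14.9 ± 1.1, hoxc6a at 12.9 ± 4.60, hoxb5a at 12.4 ± 4.86, hoxc4a at 11.7 ± 3.29 and hoxc6b at 11.2 ± 3.14 CPM per kilobase. The lowest was hoxc13b at 0.181 ± 0.10 CPM per kilobase, with hoxb1b at 0.387 and hoxb6b at 0.450 CPM per kilobase next above it. Of the 47 steps between neighbours in this order, 1 exceeded the larger SD of the pair, that of hoxb8a over hoxd3a. With that exception, adjacent genes in the order did not differ beyond their spread.

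**Figure D1:**
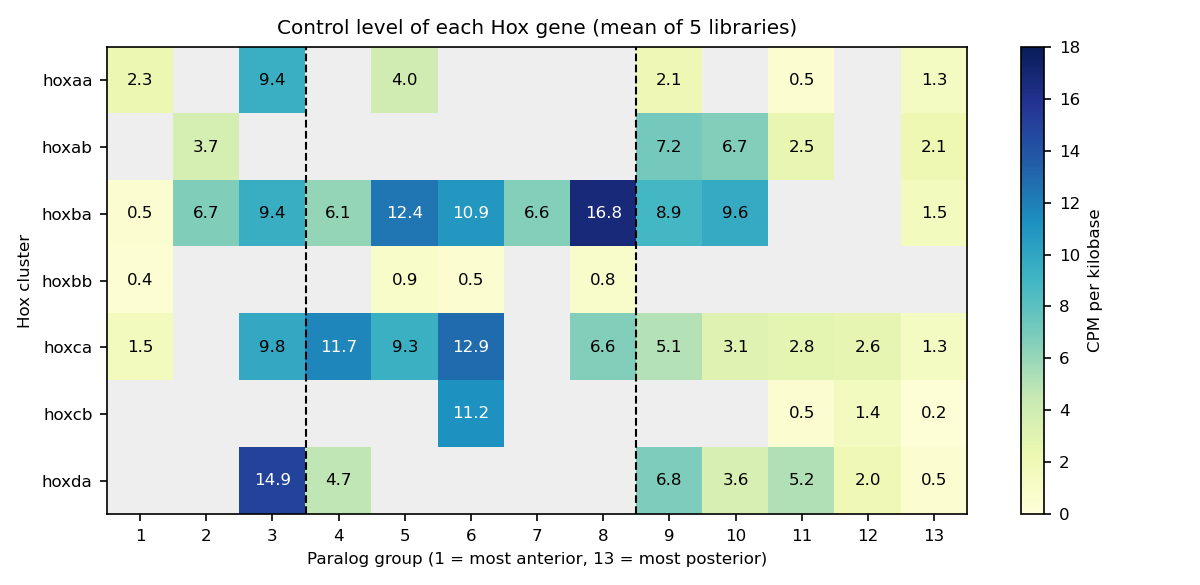
Mean control level of each Hox gene (CPM per kilobase of gene length, 5 control libraries), with clusters in rows and paralog groups in columns; darker squares are higher and grey squares have no gene there. The hoxba and hoxca rows hold most of the dark squares. Levels are low at group 1, at groups 11 to 13 apart from hoxd11a, and in the hoxbb row.

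By cluster, hoxba carried 35.6% ± 2.03 of the summed per-kilobase Hox level of the controls and hoxca carried 26.5% ± 1.53 (SD, n = 5). The hoxda cluster carried 15.1% ± 1.06, hoxab 8.75% ± 0.99, hoxaa 7.70% ± 1.05 and hoxcb 5.33% ± 1.53. The hoxbb cluster, with 4 genes, carried 1.02% ± 0.42. By paralog group the largest share was that of group 3, at 17.6% ± 2.27, followed by group 6 at 13.9% ± 1.74 and group 9 at 11.9% ± 1.16. Groups 11, 12 and 13 together carried less than group 9 alone, with 4.44% ± 1.36, 2.28% ± 1.66 and 2.65% ± 1.28. These shares depend on the length used: group 3 held 38.5% of raw Hox counts, and its 4 genes are all among the 5 models that contain other Hox genes.

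The most uniform members among the controls were a pair of group 3 genes. hoxb3a, which acts in the hindbrain and posterior arches, had a coefficient of variation of 4.57% among the controls, and hoxd3a had 7.38%. hoxb3a stood at 59.8, 66.8, 61.3, 61.9 and 60.1 CPM in control libraries 1 to 5, at 63.7, 71.9, 68.4 and 62.4 CPM in low-dose libraries 1 to 4 and at 71.4, 60.6 and 67.3 CPM in high-dose libraries 1 to 3. For hoxd3a the controls gave 51.4, 46.5, 50.1, 42.5 and 46.3 CPM, low-dose libraries 38.1, 52.9, 60.3 and 50.6 CPM and high-dose libraries 54.6, 43.4 and 47.7 CPM. All 3 groups overlapped for both genes, and the low-dose libraries of hoxd3a covered the whole control range. hoxa3a was the highest member of the hoxaa cluster, at 9.38 ± 1.38 CPM per kilobase in controls. hoxa3a stood at 50.3, 38.7, 48.6, 59 and 49 CPM in the controls, 44.8, 57.4, 68.2 and 30.9 CPM in low-dose libraries and 55.6, 44.4 and 54.1 CPM in high-dose libraries. Its lowest and its highest value were both low-dose libraries, replicate 4 and replicate 3.

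Groups 1 and 2 act furthest forward, and in controls they carried 1.83% ± 0.41 and 4.25% of the summed per-kilobase level. hoxa2b, which sets the identity of the second pharyngeal arch in zebrafish, ranged from 5.42 to 8.55 CPM over the 12 libraries. hoxb2a ranged from 8.01 to 17.1 CPM and hoxc1a from 8.36 to 15.0 CPM. hoxb1a, needed in zebrafish for the identity of hindbrain rhombomere 4 and its facial motor neurons, averaged 0.476 CPM per kilobase in controls, and its values are given with the comparisons. hoxa1a ranged from 0.995 to 4.79 CPM, with the lowest value in control replicate 2.

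Among central genes, hoxb8a, hoxc6a and hoxb5a had the highest per-kilobase levels. hoxb8a levels were 30.9, 26.9, 33.9, 32.2 and 28.7 CPM in the controls, 24.9, 27.2, 41.4 and 18.4 CPM in low-dose libraries and 33.6, 28.5 and 34.2 CPM in high-dose libraries. Control and high-dose values of hoxb8a lay close together, while the low-dose libraries spread on both sides of them. hoxb5a and hoxb5b, copies of group 5 that act in zebrafish in the positioning of the pectoral fin, differed in level in all libraries. For hoxb5a the controls gave 18.7, 9.88, 33.5, 25.3 and 23.9 CPM, low-dose libraries 20.3, 29.3, 29.1 and 17.8 CPM and high-dose libraries 23.3, 27.6 and 24.6 CPM. hoxb5b stood at 0.958, 1.99, 0.938, 2.19 and 0.845 CPM in the controls, 1.2, 1.67, 0.772 and 0.111 CPM in low-dose libraries and 1.72, 1.04 and 2.5 CPM in high-dose libraries. The hoxb5a copy was the higher of the pair per kilobase in 12 of 12 libraries, 14.6-fold by control means (12.4 ± 4.86 against 0.851 ± 0.40 CPM per kilobase). Although low, hoxb5b was the highest of the 4 hoxbb genes.

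The group 6 pair of the trunk was the most even of the 7 duplicate pairs in which both copies had a mean count of at least 10. hoxc6a and hoxc6b are the highest members of the hoxca and hoxcb clusters, at 12.9 ± 4.60 and 11.2 ± 3.14 CPM per kilobase in controls. hoxc6a levels were 7.59, 6.11, 13.2, 13.7 and 8.19 CPM in the controls, 7.98, 6.55, 7.72 and 6.07 CPM in low-dose libraries and 7.86, 8.87 and 7.59 CPM in high-dose libraries. For hoxc6b the controls gave 11, 20.8, 17.3, 21.9 and 13.2 CPM, low-dose libraries 11.6, 17.2, 19 and 7.69 CPM and high-dose libraries 12.7, 9.13 and 11.5 CPM. Among the controls hoxc6a was highest in replicates 3 and 4 and hoxc6b in replicates 2 and 4, and hoxc6a exceeded hoxc6b per kilobase in 9 of 12 libraries.

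Posterior genes were led by groups 9 and 10. hoxb10a and hoxb9a stood at 9.64 ± 1.90 and 8.93 CPM per kilobase in controls. hoxa9b, the highest hoxab gene, exceeded its duplicate hoxa9a in 12 of 12 libraries, 3.49-fold by control means (7.16 ± 2.70 against 2.05 ± 0.28 CPM per kilobase). hoxa9a stood at 3.32, 4.62, 3.65, 3.46 and 3.7 CPM in the controls, 2.07, 4.67, 4.92 and 1.62 CPM in low-dose libraries and 5.15, 3.04 and 5.9 CPM in high-dose libraries. hoxa9b levels were 6.63, 7.25, 15.4, 14.4 and 9.81 CPM in the controls, 7.26, 7.87, 16.4 and 8.64 CPM in low-dose libraries and 11.6, 9.04 and 9.86 CPM in high-dose libraries. hoxa9b was highest in low dose replicate 3 and in control replicates 3 and 4, whereas hoxa9a was highest in high dose replicate 3.

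Most genes of groups 11 to 13, which act at the tail end and in the distal fins, were low and varied widely among the controls. Exceptions were hoxd11a in level, at 5.19 ± 2.36 CPM per kilobase, and hoxc13a and hoxc11b in spread. Their coefficients of variation were 20.6% for hoxc13a and 28.5% for hoxc11b. For hoxc11 the a copy was higher in 12 of 12 libraries, 5.91-fold (2.81 ± 1.41 against 0.476 ± 0.14 CPM per kilobase). For hoxc11a the controls gave 2.58, 3.77, 7.19, 9.47 and 4.68 CPM, low-dose libraries 4.71, 5.78, 8.97 and 7.02 CPM and high-dose libraries 6.67, 4.61 and 6.3 CPM. hoxc11b stood at 1.47, 1.49, 2.29, 2.28 and 2.86 CPM in the controls, 3.27, 1.6, 3.38 and 3.57 CPM in low-dose libraries and 1.92, 3.48 and 2.91 CPM in high-dose libraries. The controls of hoxc11a ran from 2.58 CPM in replicate 1 to 9.47 CPM in replicate 4, a range that contained all treated libraries. For hoxc13 the a copy was again higher in 12 of 12 libraries, 7.10-fold (1.29 ± 0.27 against 0.181 ± 0.10 CPM per kilobase). hoxc13a levels were 1.62, 1.07, 1.46, 1.91 and 1.43 CPM in the controls, 2.23, 0.905, 4.63 and 1.62 CPM in low-dose libraries and 2.84, 2.61 and 0.727 CPM in high-dose libraries. The highest hoxc13a value was that of low dose replicate 3, and the lowest was a high-dose library.

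Within the hoxc12 pair, the a copy was dominated by 1 library. For hoxc12a the controls gave 0.884, 0, 0.521, 7.92 and 1.49 CPM, low-dose libraries 2.39, 2.72, 3.47 and 2.9 CPM and high-dose libraries 1.52, 3.3 and 0.565 CPM. hoxc12b stood at 1.33, 3.48, 4.59, 5.01 and 2.86 CPM in the controls, 2.55, 2.65, 4.44 and 2.06 CPM in low-dose libraries and 2.38, 2.61 and 1.7 CPM in high-dose libraries. Control replicate 4 stood above all other libraries for hoxc12a, so its control mean of 2.62 ± 3.96 CPM per kilobase has an SD larger than itself. The a copy exceeded the b copy (1.42 ± 0.60 CPM per kilobase) in 9 of 12 libraries.

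hoxa13a and hoxa13b pattern the distal fin, where zebrafish need them to form fin rays. hoxa13a levels were 1.84, 0.0711, 3.96, 3.28 and 1.56 CPM in the controls, 2.47, 1.53, 2.9 and 1.73 CPM in low-dose libraries and 1.85, 1.48 and 1.86 CPM in high-dose libraries. For hoxa13b the controls gave 4.05, 0, 4.07, 6.92 and 1.36 CPM, low-dose libraries 2.95, 4.04, 6.95 and 3.34 CPM and high-dose libraries 2.58, 2 and 0.565 CPM. Control replicate 2 was the lowest of the 12 libraries for both genes, with no hoxa13b read at all and the limit of 0.213 CPM given above. The b copy was higher per kilobase in 9 of 12 libraries (2.12 ± 1.74 against 1.28 ± 0.91 CPM per kilobase in controls). Both SDs are of the order of the means, so this difference is within the spread of the controls.

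The 4 duplicate pairs not described above each include a member under a mean of 10 counts. In the group 6 and group 8 pairs of the Hox-b clusters, the a copy was higher per kilobase in 12 of 12 libraries. The size of the difference is not given, since the b copies rest on few reads and hoxb8b on 1 control library.

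Much of the variation of Hox levels lay between libraries of the same group. Over the 48 genes, control replicate 2 was the lowest of 12 libraries for 13 members, 10 of them posterior, and its median deviation for posterior genes was -0.62 (log2 of CPM plus 0.5, from the 12-library median). Low dose replicate 3 was the highest for 12 members, 8 of them posterior, with a median posterior deviation of 0.58. Low dose replicate 4 was the lowest for 14 members, and 9 of these were among the 15 central genes, with a median central deviation of -0.46. Control replicate 4 was the highest for 12 members, 6 of them posterior. Several marker lists were also at an end of their range in these libraries. Control replicate 2 had the lowest summed level of the controls for somitic muscle (7432 CPM, given above). It was also the lowest control for fin and mesenchyme (99.2 CPM against 120 to 163 CPM) and for kidney (445 CPM against 478 to 741 CPM). It was the highest control for pan-neuronal genes (6688 CPM against 5002 to 5755 CPM). The same held for hindbrain and spinal cord neurons (683 CPM against 564 to 621 CPM). Low dose replicate 4 was the lowest low-dose library for every marker list but somitic muscle. These lists included proliferation genes and pan-neuronal genes (4000 CPM against 4789 to 5554 CPM). In that library the 9 neural progenitor genes summed to 437 CPM, against 591 to 789 CPM in the other low-dose libraries and 649 to 910 CPM in controls. Low dose replicate 3 was the highest low-dose library for somitic muscle, neural progenitors, fin and mesenchyme, kidney and notochord. The part of these markers in the Hox values was not tested.

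**Figure D2:**
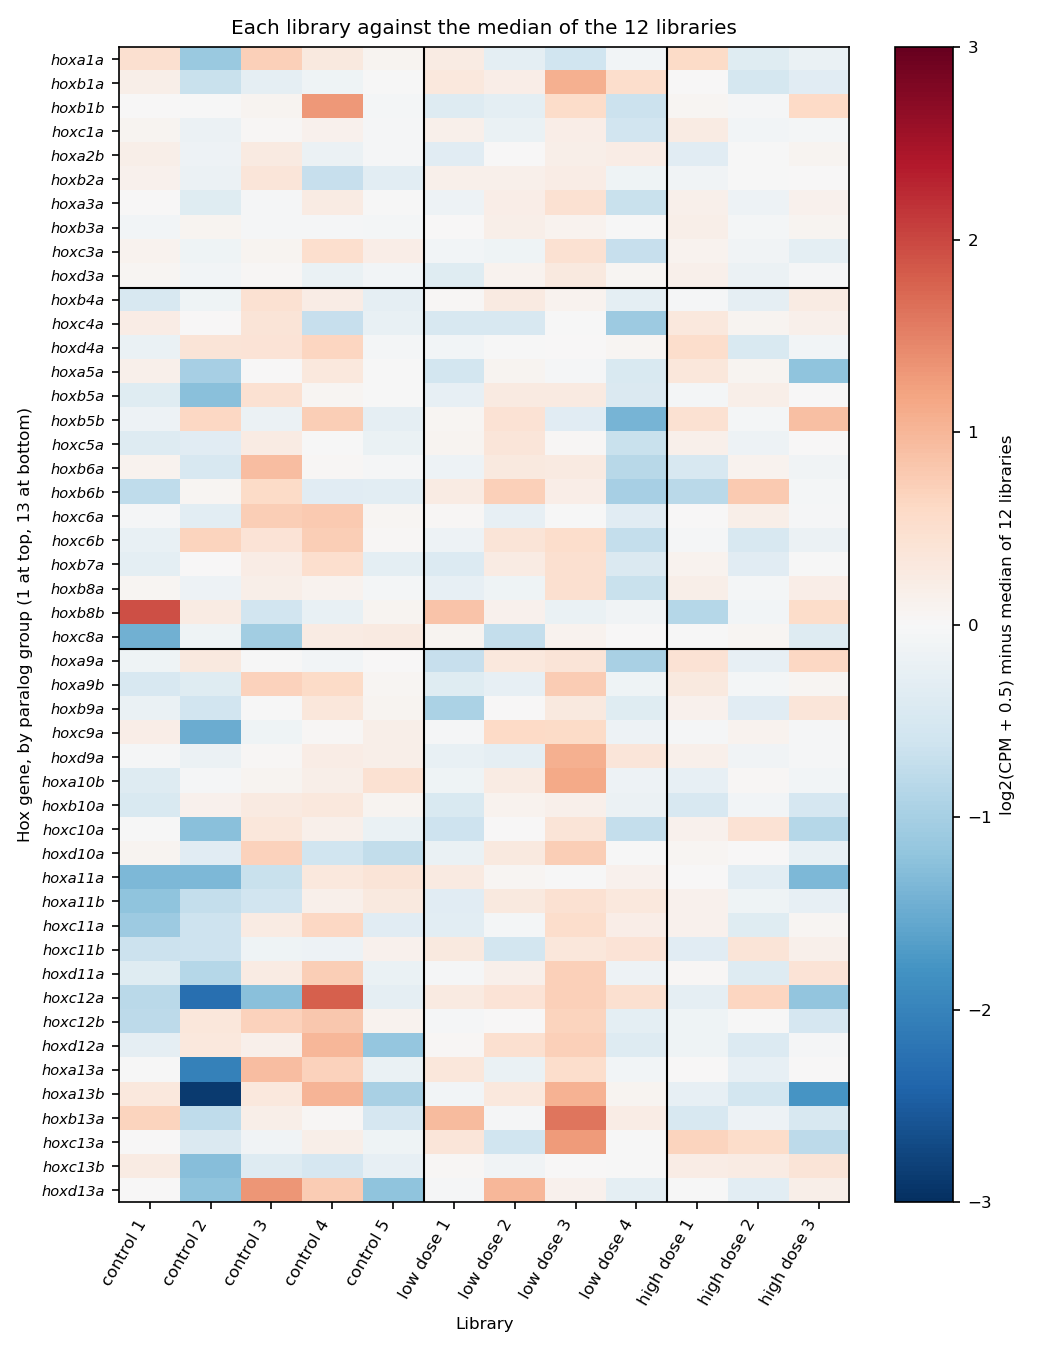
Deviation of each of 48 Hox genes (rows, by paralog group) in each of 12 libraries (columns) from its 12-library median, as log2 of CPM plus 0.5, with blue below and red above the median. Control replicate 2 is blue over the posterior genes, low dose replicate 3 is red there, and low dose replicate 4 is blue over central genes; hoxb3a and hoxd3a stay near white.

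Summed over genes, groups 1 to 10 stood above groups 11 to 13 in each library. These sums hold different numbers of genes and are not divided by gene length, so they show no gradient along the clusters. Per kilobase, group 1 carried 1.83% of the control Hox level, against 4.44%, 2.28% and 2.65% for groups 11, 12 and 13. The 34 genes of groups 1 to 10 summed to 455, 420, 539, 532 and 469 CPM in control libraries 1 to 5, to 417, 505, 609 and 379 CPM in low-dose libraries 1 to 4, and to 511, 448 and 477 CPM in high-dose libraries 1 to 3. The 14 genes of groups 11 to 13 summed to 28.9, 21.3, 45.0, 66.4 and 34.0 CPM in the controls, 41.6, 43.9, 69.0 and 42.8 CPM in low-dose libraries and 40.1, 36.7 and 35.5 CPM in high-dose libraries. Each dose group overlapped the controls in both sums. The doses overlapped each other in the sum of groups 1 to 10. In the distal sum every low-dose library lay above every high-dose library, with 41.6 and 40.1 CPM the closest values. That difference was not tested. The spread of the distal sum was widest in controls (39.1 ± 17.5 CPM, SD, n = 5), with 49.3 ± 13.2 CPM (n = 4) in low-dose larvae and 37.4 ± 2.4 CPM (n = 3) in high-dose larvae.

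**Figure D3:**
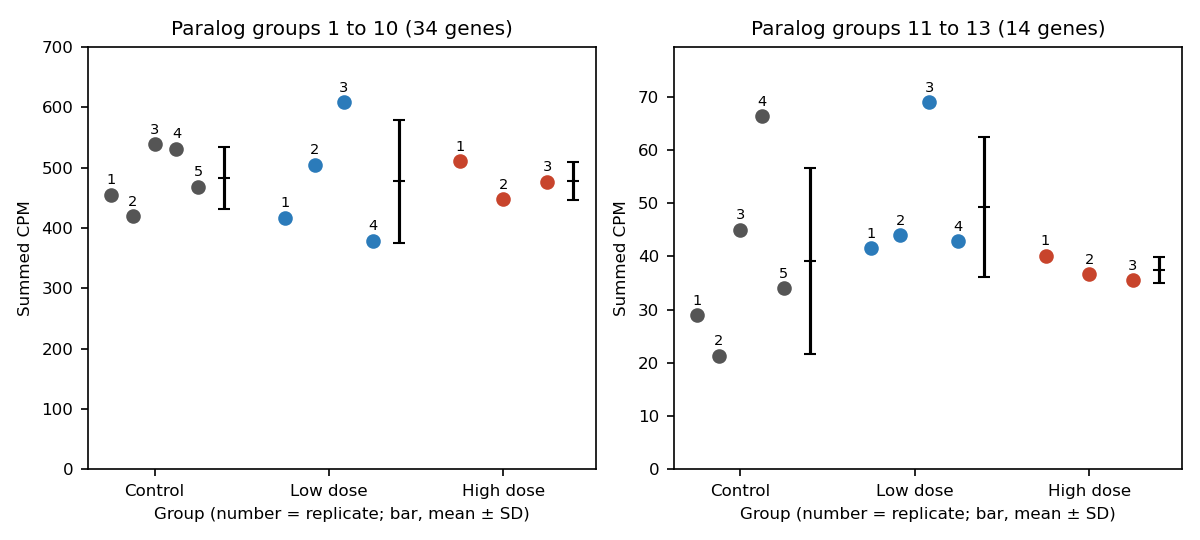
Summed CPM per library for the 34 Hox genes of paralog groups 1 to 10 and the 14 genes of groups 11 to 13, one point per library, with the mean and SD of each group. The distal sum runs from 21.3 to 66.4 CPM within the controls, a range that contains all but 1 of the treated libraries.

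The low dose was compared with the controls to ask whether exposure altered the axial code. No Hox gene passed at an adjusted p under 0.05 (edgeR quasi-likelihood, Benjamini-Hochberg over all genes tested): 0 of the 44 members tested, against 0.0% of 18811 genes. At an unadjusted p under 0.05 the count was also 0 of 44 members, where 3.89% of all genes passed, and both counts were 0 with DESeq2. The 4 untested members were those with a mean count under 10 named above. hoxd13a (mean count 10.9 over the libraries of this comparison) and hoxb1a (14) were just inside this limit, and hoxb1a passed it through the low-dose libraries (mean 20.0 counts, against 9.2 in controls), as did hoxd13a (12.5 against 9.6 counts). Of the tested members, 26 (59.1%) had a log2 fold change above 0, against 50.2% of all genes, and their median was 0.05, against 0.00 for all genes. This median ran from -0.09 (without low dose replicate 3) to 0.13 (without low dose replicate 4) as single libraries were left out, so it has no firm sign. Changes within the intervals were not detectable at this depth and number of libraries: the 95% interval of a typical member reached 0.76 on the log2 scale to either side, from 0.28 for hoxb3a to 2.34 for hoxd13a.

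The members with the smallest unadjusted p-values at the low dose were hoxb1a and hoxb13a, the group 13 gene of the hoxba cluster. hoxb1a stood at 1.03, 0.355, 0.625, 0.728 and 0.845 CPM in the controls, 1.2, 1.04, 2.32 and 1.45 CPM in low-dose libraries and 0.859, 0.435 and 0.565 CPM in high-dose libraries. Every low-dose value of hoxb1a lay above every control value, by a narrow margin. It was 1 of 44 members so placed (0.707% of all genes were), but it passed the count limit through the very group in which it was high, so nothing is read from this count. Wholly below the controls lay 0 of 44 members, against 0.835% of all genes. The log2 fold change of hoxb1a was 1.05 (SE 0.54, 95% interval -0.13 to 2.23, edgeR unadjusted p = 0.077, adjusted p = 0.924). Its edgeR unadjusted p was 0.117 with no count limit, and its log2 fold change was 0.79 without the 3 libraries that stood apart. hoxb13a levels were 3.09, 0.853, 2.08, 1.82 and 1.1 CPM in the controls, 3.91, 1.74, 6.47 and 2.17 CPM in low-dose libraries and 1.12, 1.56 and 1.13 CPM in high-dose libraries. Low dose replicates 1 and 3 stood above all controls for hoxb13a, while replicates 2 and 4 lay among them. Its log2 fold change was 0.99 (SE 0.52, 95% interval -0.15 to 2.12, edgeR unadjusted p = 0.0819, adjusted p = 0.924), and without low dose replicate 3 it was 0.54.

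hoxc4a, expressed from the posterior hindbrain backwards, and hoxc6a followed, both with lower mean values at the low dose. For hoxc4a the controls gave 16.1, 13.8, 18.1, 8.29 and 11.7 CPM, low-dose libraries 9.73, 9.75, 13.7 and 6.24 CPM and high-dose libraries 17.2, 14.5 and 15.3 CPM. The 3 groups overlapped in part for hoxc4a: low dose replicate 4 lay below every control, and each high-dose library was above each low-dose library. Its log2 fold change at the low dose was -0.47 (SE 0.29, 95% interval -1.1 to 0.17, edgeR adjusted p = 0.924). It was -0.30 without low dose replicate 4 and -0.12 without the 3 libraries that stood apart. The log2 fold change of hoxc6a was -0.46 (SE 0.30, 95% interval -1.11 to 0.18, edgeR adjusted p = 0.924). The 4 low-dose values of hoxc6a lay within or just under the range of the lower 3 controls.

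With all libraries, the low-dose fold changes of central and posterior genes leaned to opposite sides, without any gene passing. Of all genes tested, 50.2% were above 0 in this comparison. Anterior members had a median log2 fold change of 0.03, with 6 of 9 above 0. Central members had a median of -0.20, with 4 of 13 above 0, and group 6 had 0 of 3 tested members above 0. The untested group 6 member hoxb6b, with few counts, had a log2 fold change of 0.47 in the authors' deposited table. Posterior members had a median of 0.28, with 16 of 22 above 0, and groups 11 to 13 alone had 12 of 13. This division was drawn after the values were seen and carries no test. It also rested on few libraries: without low dose replicate 3 the posterior count above 0 was 11 of 22 and that of groups 11 to 13 was 9 of 13, and without control replicate 5 the latter was also 9 of 13. The central count was 2 of 13 without control replicate 1 and 2 of 14 without low dose replicate 2, a stronger lean. Without low dose replicate 4 it was 6 of 14, and the central median was -0.05. With the 3 libraries that stood apart left out together, 13 of 14 genes of groups 11 to 13 were above 0. So were 7 of 14 central genes and 31 of 46 members in all. The central median was then 0.01 and the posterior median 0.21. The proliferation list had 0 of 18 genes above 0 at the low dose, with 6 of 18 at an unadjusted p under 0.05 in edgeR, against 3.89% of all genes. Its summed level was 205 to 493 CPM, against 451 to 690 CPM in controls. Its part in the Hox values was not tested.

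The high dose gave no call either. At an adjusted p under 0.05 in edgeR, 0 of 42 tested members passed, against 0.0% of 18618 genes, and at an unadjusted p under 0.05 the count was 0 of 42, against 2.0% of all genes. With DESeq2 these counts were 0 and 1, the latter being hoxc6b. hoxb1a and hoxd13a were under the mean count of 10 here and joined the 4 untested members. Of those tested, 22 (52.4%) had a log2 fold change above 0, against 49.5% of all genes, and the median was 0.04, against 0.00 for all genes. This count rested on control replicate 2, the library low in posterior genes: without it, 14 of 43 members were above 0, and without the 3 libraries that stood apart the count was 18 of 44. The median likewise ran from -0.08 to 0.06 as single libraries were left out. Intervals were as wide as at the low dose, with a median reach of 0.72 to either side and 2.47 for hoxc12a. No member had all high-dose libraries on 1 side of all controls, where 1.41% of all genes lay wholly above and 1.08% wholly below.

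The lowest p-value at the high dose was that of hoxc6b. Its high-dose values, given above, lay within the lower part of the control range, with replicate 2 below every control. The log2 fold change was -0.60 (SE 0.27, 95% interval from -1.2 to almost exactly 0, edgeR unadjusted p = 0.0501, adjusted p = 1.00). In the authors' deposited table hoxc6b was the only 1 of 48 members at an unadjusted p under 0.05 at the high dose, with a log2 fold change of -0.62, p = 0.0417 and adjusted p = 1.00. In the authors' deposited table for the low dose the count was 0 of 48. hoxb10a, a posterior trunk gene, was second. hoxb10a stood at 9.21, 14, 15.6, 15.9 and 13.5 CPM in the controls, 9.25, 13.8, 14.3 and 11.3 CPM in low-dose libraries and 9.05, 12.1 and 8.81 CPM in high-dose libraries. High dose replicates 1 and 3 were just below the lowest control and replicate 2 lay within the control range. The log2 fold change of hoxb10a was -0.45 (SE 0.26, 95% interval -1.01 to 0.11, edgeR adjusted p = 1.00).

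hoxc13b and hoxc3a completed the 4 smallest p-values at the high dose. hoxc13b levels were 1.55, 0.213, 0.834, 0.728 and 0.975 CPM in the controls, 1.28, 1.11, 1.25 and 1.23 CPM in low-dose libraries and 1.52, 1.56 and 1.78 CPM in high-dose libraries. Control replicate 1 of hoxc13b reached the high-dose range and the other controls lay under it. Its log2 fold change was 0.90 (SE 0.64, 95% interval -0.48 to 2.29, edgeR adjusted p = 1.00), and 0.57 without the 3 libraries that stood apart. For hoxc3a the controls gave 39.1, 33.3, 38.7, 51.2 and 41.7 CPM, low-dose libraries 33.9, 33.2, 50.2 and 22.1 CPM and high-dose libraries 39, 33.4 and 29.6 CPM. hoxc3a, whose model contains other Hox genes, had a log2 fold change of -0.26 (SE 0.19, 95% interval -0.66 to 0.14, edgeR adjusted p = 1.00), and its groups overlapped. Without control replicate 4 it was -0.17. By class, the median log2 fold changes at the high dose were 0.04 for anterior, -0.01 for central and 0.04 for posterior members. Groups 11 to 13 had 6 of 12 genes above 0, with a median of -0.11 that rested on single controls: it was -0.38 without control replicate 5 and 0.35 without control replicate 4. Group 6 again had 0 of 3 tested members above 0, while the untested hoxb6b was at 0.36 in the authors' deposited table. Both doses share the same control libraries, so that their fold changes are not independent of each other.

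**Figure D4:**
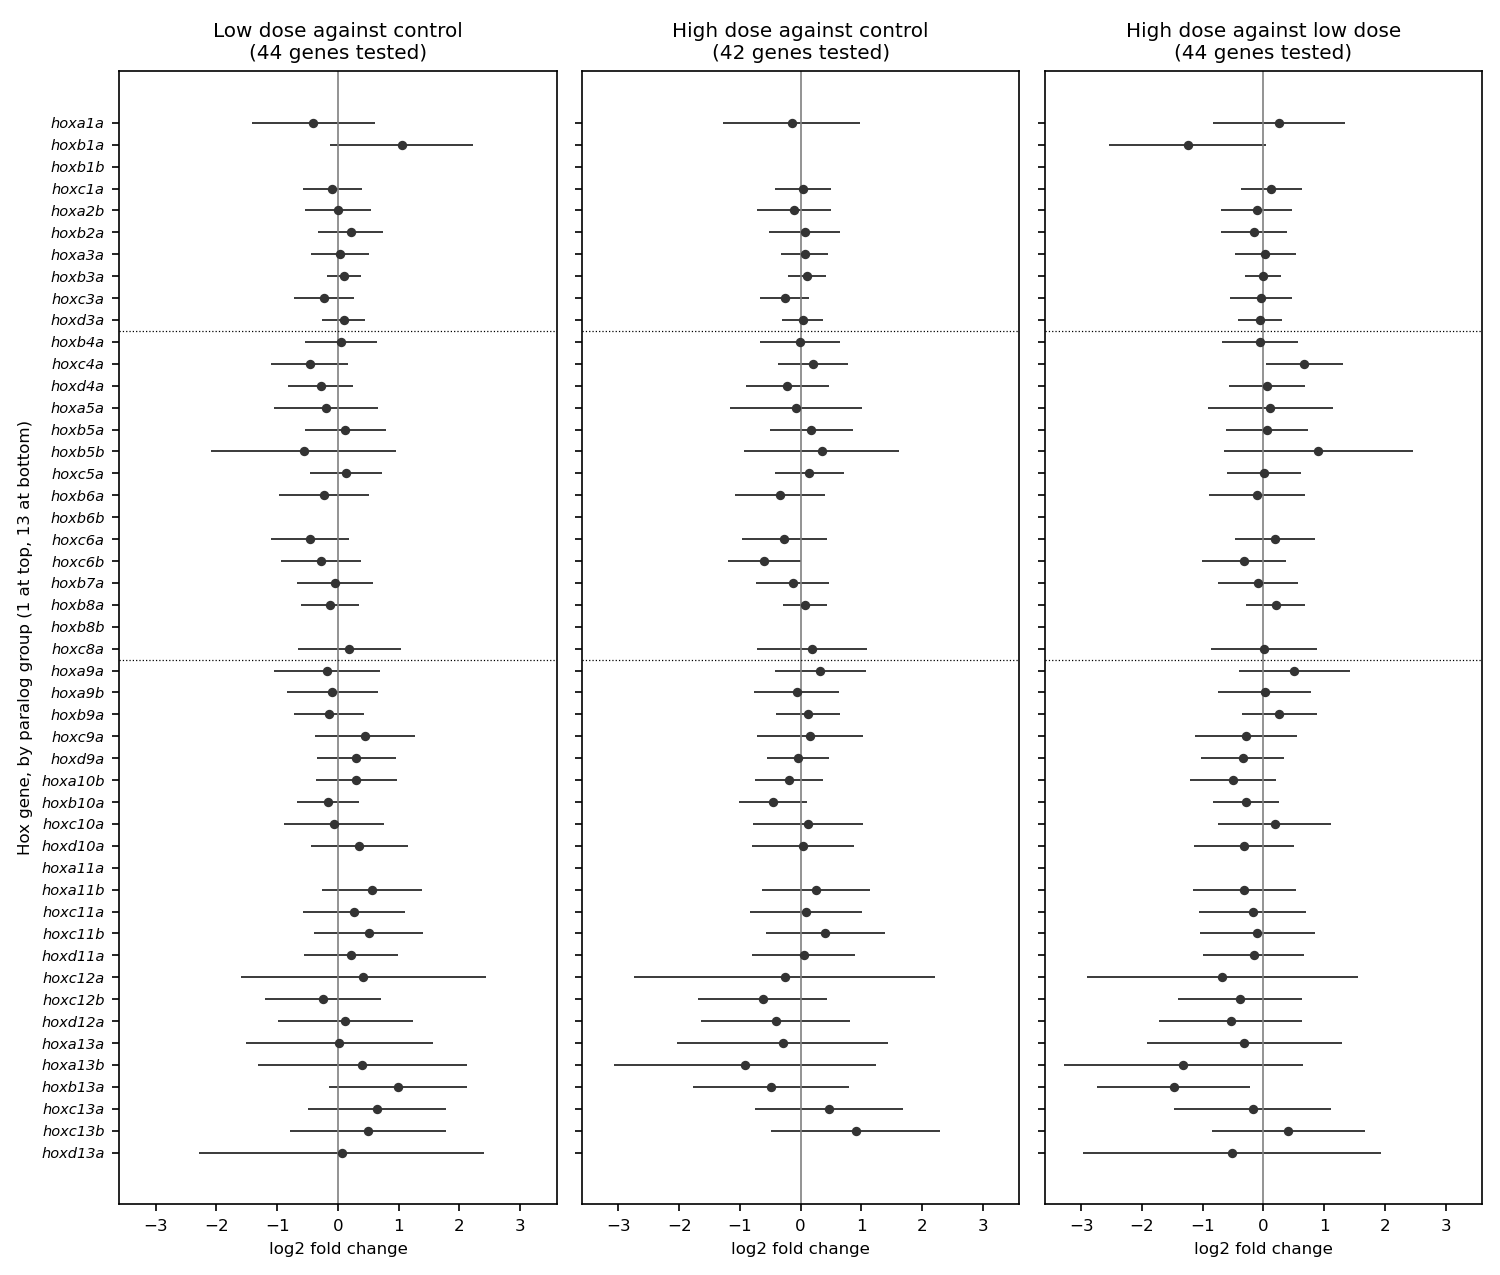
Log2 fold change with its 95% interval for every tested Hox gene, ordered by paralog group, in the low dose against control, the high dose against control and the high against the low dose. All intervals include 0 in the first and second panels, and hoxb13a and hoxc4a leave 0 in the last.

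The doses were then set against each other, with all 12 libraries sharing 1 estimate of spread. At an adjusted p under 0.05 in edgeR, 0 of 44 members passed, against 0.0% of 18786 genes. At an unadjusted p under 0.05 the count was 2 of 44 members (4.55%), against 4.48% of all genes, so the share was that of the background. With DESeq2 these counts were 0 and 3, with hoxb1a added. hoxb13a was lower at the high dose than at the low dose, with a log2 fold change of -1.48 (SE 0.59, 95% interval -2.74 to -0.21, edgeR unadjusted p = 0.0249, adjusted p = 0.953). Without low dose replicate 3, its highest library, this was -1.03, and its edgeR unadjusted p was no longer under 0.05. hoxc4a was higher, at 0.67 (SE 0.30, 95% interval 0.04 to 1.31, edgeR unadjusted p = 0.0386, adjusted p = 0.953), and at 0.51 (edgeR unadjusted p = 0.0725) without the 3 libraries that stood apart. hoxb1a was next, at -1.25 (SE 0.61, 95% interval -2.55 to 0.05, edgeR adjusted p = 0.953). The count at an unadjusted p under 0.05 was 0 without high dose replicate 1 or without high dose replicate 3, and 3 without control replicate 2, where hoxa13b was added.

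hoxa10b, a posterior trunk gene, had the next p-value named. hoxa10b stood at 7.81, 10.2, 11, 11.7 and 14.3 CPM in the controls, 9.49, 12.3, 23.4 and 9.19 CPM in low-dose libraries and 8.65, 10.5 and 9.69 CPM in high-dose libraries. Low dose replicate 3 stood far above every other library for hoxa10b. The log2 fold change of the high against the low dose was -0.50 (SE 0.33, 95% interval -1.2 to 0.21, edgeR adjusted p = 0.953), and -0.10 without that library. All high-dose libraries were above all low-dose libraries for hoxc13b and hoxc4a, 2 of 44 members, against 3.88% of all genes. They were below for hoxa13b, hoxb13a and hoxb1a, 3 of 44 members, against 2.86% of all genes. hoxb1a passed the count limit of this fit through its low-dose libraries, where it is high, so its place among them is no support. The low-dose libraries here are those compared with the controls above, so a lean opposite to the one seen there is not a second observation. Posterior members had a median log2 fold change of -0.30, with 5 of 22 above 0, and groups 11 to 13 had 1 of 13 above 0. Without low dose replicate 3 these counts were 9 of 22 and 4 of 13. Over all 44 members, 17 were above 0 (38.6%, against 48.9% of all genes), and 26 without that library, where the median turned from -0.09 to 0.03. Without the 3 libraries that stood apart, 13 of 44 members were above 0. In the same comparison with all libraries, 48.9% of all genes were above 0 and 4.48% had an edgeR unadjusted p under 0.05. There 18 of 18 proliferation genes were above 0 (median log2 fold change 0.67, 5 at that p), and so were 9 of 10 pan-neuronal genes (median 0.33, 2 at that p). Their part in the Hox values was not tested.

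**Figure D5:**
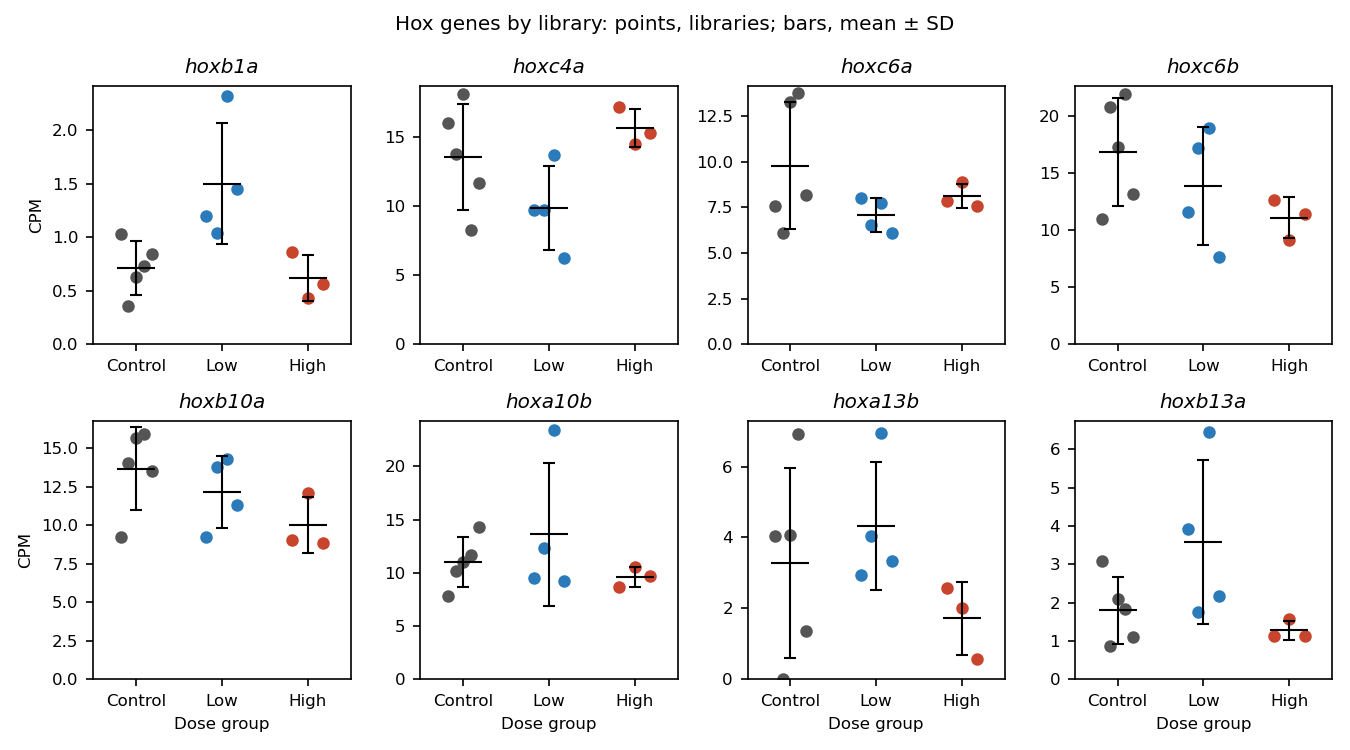
CPM in each library for 8 named Hox genes in control, low-dose and high-dose larvae, one point per library with the group mean and SD. The low-dose points of hoxb1a lie just above the controls, those of hoxc4a lie below the high-dose points, and those of hoxb13a and hoxa13b lie above the high-dose points.

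As shares of the summed per-kilobase Hox level, the anterior class differed least between groups. Anterior members held 23.7% ± 2.98 in controls, 24.0% ± 1.65 in low-dose larvae and 23.9% ± 1.01 in high-dose larvae. Central members held 45.9% ± 2.18, 41.5% ± 3.69 and 45.8% ± 0.50, and posterior members held 30.4% ± 3.58, 34.4% ± 4.00 and 30.3% ± 0.75, in the same order. The low-dose mean of the central class was lower than the others by more than the control SD. That of the posterior class was higher by more than the control SD, but not by more than its own SD of 4.00. Low-dose libraries 1 to 4 held 45.2%, 44.1%, 39.3% and 37.5% in central genes, against 44.1% to 48.6% in controls. In posterior genes they held 30.0%, 32.3%, 38.8% and 36.7%, against 26.4% to 35.8% in controls. By raw counts instead, the anterior class was the largest of the controls and not the smallest, with 45.6% ± 3.96. Central members then held 29.8% ± 1.91 and posterior members 24.6% ± 3.19. Low-dose larvae held 27.1% ± 2.15 of raw counts in central and 27.0% ± 3.32 in posterior members. The posterior difference was thus within the control SD by raw counts, while the central one was not. The total per-kilobase level was 251 ± 42.0 CPM per kilobase in controls, 252 ± 57.4 in low-dose larvae and 244 ± 11.4 in high-dose larvae.

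Genes that act with or above the Hox genes were examined in the same fits, from lists chosen with earlier results of these data known. The TALE cofactors Pbx, Meis and Pknox bind DNA together with Hox proteins. Of all genes, 3.89% passed an unadjusted p under 0.05 at the low dose, 2.0% at the high dose and 4.48% between the doses. At these shares, lists as short as those below are expected to hold few or no such genes, so counts of 0 are not read as a result. Of 14 cofactors tested, 0 passed in any comparison. Their median log2 fold change was -0.02 in low-dose larvae and 0.07 in high-dose larvae. pbx3a came closest in low-dose larvae, with a log2 fold change of 0.46 (SE 0.27, edgeR adjusted p = 0.924). In high-dose larvae pbx3b lay almost at the threshold, with a log2 fold change of 0.33 (SE 0.15, edgeR unadjusted p = 0.05004). Of 8 tested genes upstream of Hox, such as the Cdx factors and egr2b (Krox20, of hindbrain rhombomeres 3 and 5), 0 passed in any comparison. Retinoic acid sets anterior Hox boundaries in the embryo, and of its enzymes and receptors 0 of 21 passed in low-dose larvae, 0 of 20 in high-dose larvae and 0 of 21 between the doses.

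Polycomb and Trithorax proteins keep Hox genes silent or active in each region. Of 27 tested, 0 passed at an unadjusted p under 0.05 at the low or the high dose, against 3.89% and 2.0% of all genes. Between the doses 1 passed, against 4.48% of all genes, so that the share was no higher than the background. That gene was cbx2, a Polycomb subunit, with a log2 fold change of 0.44 in the high against the low dose (SE 0.15, edgeR unadjusted p = 0.011). Of the 3 even-skipped relatives beside the clusters, 1 passed an unadjusted p under 0.05 in edgeR at the low dose, where 3.89% of all genes passed. This was eve1, with 0.70 ± 0.12 CPM at the low dose against 2.91 ± 2.79 CPM in controls. Its log2 fold change was -2.04 (SE 0.93, edgeR unadjusted p = 0.048, adjusted p = 0.924), and the control SD was nearly as large as the control mean. No member of these lists passed at an adjusted p under 0.05 in edgeR.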

How the data were processed

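Poly(A) mRNA of 12 larval libraries was sequenced from a directional dUTP kit, per the labels' protocols. Per the submitters' processing notes, the build was GRCz11 and the tools were HISAT2, featureCounts, fastp and DESeq2, without version numbers. Per the file headers, the authors deposited raw read counts per gene, 1 table per dose with the same 5 control columns, and these counts were used here. The authors' deposited log2 fold changes and p-values were used only where the text names their table. Another 34 per-library columns (normalized signal and FPKM) were not used, and 0 rows lacked a gene identifier. Missing gene names were not counted.

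Genes averaging 10 or more counts were tested by quasi-likelihood in edgeR 4.0.16 under R 4.3.3, with a prior count of 0.125 and TMM scaling. Each dose was fitted against the controls, and the doses were compared in a fit of all 12 libraries over the 25004 genes in both tables. Benjamini-Hochberg adjustment ran over all genes tested, with a threshold of 0.05. SE is the absolute log2 fold change over the root of F. Alternatives were DESeq2 1.42.0, its size factors, other count filters, a prior count of 2, the replicate number as a block, and libraries left out. The fit was tested on simulated data. Genes given library by library were those with the 4 smallest p-values per comparison, the highest member of each cluster and both copies of each duplicate pair with mean counts of at least 10. The members and all lists were chosen with earlier results of these data known. Total counts of 10721025 to 16378571 per library set the precision, and intervals per gene are given with the results.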

Additional observations from a re-analysis of the deposited data

Results flagged for a closer look

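In each control and low-dose group, the highest and the lowest library of every Hox gene were compared with the rest by Dixon's gap test at the 95% level. Of 96 groups looked at, 6 had such a library, and chance alone flags about 5% of groups, or 4.8 here. The trunk gene hoxa9b stood at 16.4 CPM in low dose replicate 3, against 7.26 to 8.64 CPM in the other low-dose libraries. hoxc8a stood at 5.64 CPM in low dose replicate 2, against 9.58 to 10.3 CPM in the others of that group. The posterior gene hoxc11b was also low there, at 1.6 CPM against 3.27 to 3.57 CPM. hoxc12a stood at 7.92 CPM in control replicate 4, against 0 to 1.49 CPM in the other controls. The hoxbb genes hoxb1b and hoxb8b, both under a mean of 10 counts, stood at 1.64 CPM in control replicate 4 (others 0.325 to 0.417 CPM) and at 2.95 CPM in control replicate 1 (others 0.104 to 0.569 CPM). No member had every low-dose library on one side and every high-dose library on the other side of its control mean, among the 48 looked at.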

How the results depend on the processing

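No Hox gene passed at an adjusted p under 0.05 under any alternative run. Signs were followed only for the genes with the 4 smallest p-values of each comparison, and none of these changed sign. The sign of the median Hox fold change did turn, as given with each comparison, and it was -0.02 at the high dose without a count filter. With DESeq2, 1 gene of the whole table was called in low-dose larvae and 4 in high-dose larvae, none of them a Hox gene. Without the 3 libraries that stood apart, 1 gene was called at the high dose and 3 between the doses. The count of Hox genes at an unadjusted p under 0.05 was 1 at the high dose with DESeq2 and 1 with its size factors (hoxc6b). Between the doses it was 1 at a mean count of at least 50. Leaving out 1 library at a time gave 0 to 1 in low-dose larvae, 0 to 2 in high-dose larvae and 0 to 3 between the doses. Deviations from the group means of same-numbered libraries correlated at -0.258 to 0.26 (10 pairs, median 0.056). Libraries of different number gave -0.331 to 0.308 (37 pairs, median -0.014). These few and widely spread values cannot decide whether the replicate number pairs the samples. With the replicate block the count was 1 at the low dose (hoxa11b) and 1 between the doses. For the same libraries without the block, an alternative chosen after seeing the data, it was 0 and 1. From raw counts instead of per-kilobase levels, control shares were 11.9% for hoxaa, 6.99% for hoxab, 22.2% for hoxca and 16.3% for hoxda. By paralog group they were 3.31% for group 1, 38.5% for 3, 6.26% for 4, 6.79% for 5, 7.21% for 6, 1.97% for 7, 7.57% for 8, 10.1% for 9 and 7.25% for 10. Depth limits the hoxbb genes and groups 11 to 13 most, where counts are fewest.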

Other observations

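Homeobox genes with forebrain or midbrain expression served as a contrast, together with the forkhead gene foxg1a. The list is not confined to regions anterior to the Hox domains, since en1b is also among the spinal cord and hindbrain markers used here. Of the 15 tested at the low dose, 4 had a log2 fold change above 0 (50.2% of all genes did), with a median of -0.13 for the list. The gene with the smallest p was en2b, an Engrailed gene of the midbrain-hindbrain boundary. It stood at 16.1 ± 3.6 CPM (SD, n = 4), against 25.8 ± 2.87 CPM in the 5 controls, and its log2 fold change was -0.68 (SE 0.20, edgeR unadjusted p = 0.00496, adjusted p = 0.924). At the high dose 10 of 15 were above 0 (49.5% of all genes were), with a median of 0.07 for the list. foxg1a, a forebrain factor, stood at 38.3 ± 3.02 CPM (n = 3) against 27.9 ± 5.55 CPM in controls, with a log2 fold change of 0.45 (SE 0.19, edgeR unadjusted p = 0.0375, adjusted p = 1.00). No gene of this list passed at an adjusted p under 0.05 in any comparison.

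Markers of fin and mesenchyme, where distal Hox genes act, had 1 of 11 genes above 0 at the high dose, against 49.5% of all genes. Their median log2 fold change was -0.31, and 0 of 11 had an unadjusted p under 0.05 in edgeR, against 2.0% of all genes. Their summed level was 84.7 to 118 CPM there and 99.2 to 163 CPM in controls, so the groups overlapped.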
